A study of Mus musculus with 21 samples.

Results

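The 10 genes described here encode the light-sensing cascade of cone photoreceptors: the opsins Opn1sw and Opn1mw, the arrestin Arr3, the transducin subunits Gnat2, Gnb3 and Gngt2, the phosphodiesterase subunits Pde6c and Pde6h, and the channel subunits Cnga3 and Cngb3. They were taken by name from the cascade, they are 10 of the 17164 genes in the deposited table of read counts, and all 10 had enough reads to be tested. The libraries come from a sort for retinal ganglion cells, which send their axons through the optic nerve to the brain, in C57BL/6 mice aged 6 to 7 weeks, 3 days after a crush of that nerve. Guide RNAs targeted the bZIP stress transcription factors ATF3 (5 knockout libraries), ATF4 (2), CEBPG (4) and CHOP (5), the protein of the gene Ddit3, and 4 wild type libraries received a control guide. Every group had a crushed nerve, so none of them gives the uninjured state. The sources used here give neither the gate of the sort nor the way the guides and the nuclease were delivered.

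In the submitters' sample sheet the ATF3, CEBPG and CHOP knockouts are female and of batch 3, the ATF4 knockouts are of batch 1 and list 1 female and 1 male, and the controls are male and of batch 2. The reads go against the sheet for ATF4 replicate 1, listed as female: it had 3 reads of Xist, which is transcribed from the inactive X chromosome of females, and 1912 reads over 4 Y-linked genes. ATF4 replicate 3, listed as male, had 0 and 1863, the ATF3, CEBPG and CHOP libraries had 4138 to 12626 Xist reads and 0 Y-linked reads, and the controls had 1 to 32 and 1778 to 3411. Batch and guide cannot be told apart in any comparison with the controls, and for ATF3, CEBPG and CHOP neither can sex. The ATF3, CEBPG and CHOP knockouts share batch and sex, so comparisons among them are within a batch.

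Depth differed between groups, with 25267560 to 32776378 counted reads for ATF3, 11929692 to 12404601 for ATF4, 9000250 to 29810987 for CEBPG and 14272784 to 31543917 for CHOP, against 6401446 to 11752828 for the controls. Of the targeted genes, Atf3 fell by 1.56, Atf4 by 0.97 and Ddit3 by 0.43 on the log2 scale in their own knockouts against control. Cebpg did not pass the test (log2 fold change -0.16, adjusted p = 0.491). The sequence at the guide sites was not analysed here. The labelled cell type was checked against 15 ganglion cell markers, which together took 0.0753% of the counted reads in ATF3, 0.0757% in ATF4, 0.0594% in CEBPG and 0.0693% in CHOP knockouts, and 0.0633% in the controls. Pou4f2, a ganglion cell transcription factor, had 0 reads in all 4 CEBPG libraries, in 3 ATF3 and 2 CHOP libraries and in 1 control. In each library 0 to 2 of the 15 markers were at 0. CEBPG replicates 6 and 8 stood farthest from the mean of their own group, with SDs of 0.84 and 0.87 log2 CPM over genes.

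Cones are the photoreceptors of daylight and colour vision, and rods serve dim light. In a cone, light activates an opsin, the opsin activates transducin, transducin relieves the inhibition of phosphodiesterase 6, cyclic GMP falls and the cyclic nucleotide-gated channel closes, while cone arrestin shuts the opsin off. Rods run the same steps with their own set of related proteins, and mature ganglion cells sense light, where they do, through a different opsin, melanopsin. Gnb3 also serves as a G protein beta subunit in ON bipolar cells, the interneurons that signal light increments, and Gngt2 is also expressed by cells of the immune system. In bulk libraries such as these, fewer cells of a type and less RNA per cell cannot be told apart.

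Summed over the 10 cone genes, the share of the counted reads was 0.238% ± 0.0147 for ATF3 (SD, n = 5), 0.446% ± 0.0720 for ATF4 (n = 2), 0.162% ± 0.0385 for CEBPG (n = 4) and 0.215% ± 0.0172 for CHOP knockouts (n = 5), against 0.463% ± 0.0827 for the controls (n = 4). In every group this share was larger than that of the 15 ganglion cell markers. The 2 ATF4 libraries lay at 0.395% and 0.497%, the first just below and the other within the controls, which ran from 0.407% to 0.585%. All libraries of the other knockouts lay at or below 0.252%.

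Levels per length, in CPM (counts scaled to a common library size) per kilobase of the principal GENCODE transcript, ordered the genes over a wide range in the controls. Where several transcripts held the same principal rank, the longest was used, which for Pde6h had 5940 bases. The place of a gene in the order depends on this choice, and other transcripts were not tried. Gnb3 (658 ± 140, SD, n = 4) and Opn1sw (647 ± 72.6) came first and did not differ beyond their spread. Arr3 followed at 422 ± 105 CPM per kilobase. Opn1mw (238 ± 45.8) and Gnat2 (219.8 ± 31.6) formed the next pair, again within their spread. Gngt2 (78.0 ± 21.3) and Pde6c (76.9 ± 7.27) stood together, with Pde6h at 48.5 ± 11.7. The channel subunits were lowest, with Cngb3 at 6.89 ± 1.53 and Cnga3 at 3.19 ± 0.764 CPM per kilobase. All levels below are in CPM without the division by length, so they compare libraries and not genes.

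Promoters are shown for 3 genes that moved together in most knockouts and carry different roles: the short-wavelength opsin, cone transducin and the inhibitory phosphodiesterase subunit. The sequences come from RefSeq on GRCm38.p6, run 5′ to 3′ on the strand of the gene and cover 250 bases before to 50 bases after the start site. Capitals mark a match to 1 of the motifs searched, and a stretch with no capitals holds none.
Opn1sw, chr6:29380464-29380763, minus strand: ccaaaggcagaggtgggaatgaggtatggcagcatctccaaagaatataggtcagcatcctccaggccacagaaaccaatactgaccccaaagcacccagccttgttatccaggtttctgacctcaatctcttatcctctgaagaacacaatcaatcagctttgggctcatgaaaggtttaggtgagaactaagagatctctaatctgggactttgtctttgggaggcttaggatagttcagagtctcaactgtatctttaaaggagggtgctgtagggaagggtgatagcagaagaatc
Gnat2, chr3:108092816-108093115, plus strand: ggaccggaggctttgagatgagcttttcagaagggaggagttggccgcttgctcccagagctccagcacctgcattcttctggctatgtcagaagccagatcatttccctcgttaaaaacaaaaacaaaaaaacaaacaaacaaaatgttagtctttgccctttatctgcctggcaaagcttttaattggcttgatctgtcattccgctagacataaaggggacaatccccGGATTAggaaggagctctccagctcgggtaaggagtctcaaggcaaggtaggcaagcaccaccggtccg
Pde6h, chr6:136954273-136954572, plus strand: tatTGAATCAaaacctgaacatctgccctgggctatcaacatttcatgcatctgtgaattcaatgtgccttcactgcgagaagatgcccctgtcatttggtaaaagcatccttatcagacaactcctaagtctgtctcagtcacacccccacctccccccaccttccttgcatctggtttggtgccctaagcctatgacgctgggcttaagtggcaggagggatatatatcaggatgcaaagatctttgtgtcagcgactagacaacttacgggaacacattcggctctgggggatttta

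Both strands were searched for the CRX core TAATCC, the cyclic AMP response element TGACGTCA, the AP-1 site TGANTCA and the C/EBP-ATF composite TGATGCAAT, and none of these 4 overlapped another in the 3 windows. The table matched 6 of the 10 cone genes: Opn1sw, Opn1mw, Arr3, Gnat2, Pde6h and Cnga3. The CRX core, written GGATTA on the other strand, lay in the Gnat2 window from -19 to -14 relative to the start site and in 1 of the 6 matched cone genes in all, against 4 of the 6 matched rod counterparts and 7.06% of 32851 promoters. The AP-1 site lay in the Pde6h window from -247 to -241, in 1 of 6 cone genes, 2 of 6 rod counterparts and 7.81% of promoters. The cyclic AMP response element (1.79% of promoters) and the composite (0.192%) were in none of the matched cone windows. A match is only a run of letters, and binding was not measured.

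Against the control guide, 9 of the 10 cone genes fell in the ATF3 knockouts, 9 in the CEBPG knockouts and 9 in CHOP knockouts, and none rose in these 3 groups. Over all 16797 genes tested, 14.8% were called lower and 18.6% higher for ATF3, 15.0% and 18.3% for CEBPG, and 15.4% and 18.1% for CHOP. The exception was a channel subunit each time: Cngb3 in ATF3 and CHOP knockouts and Cnga3 in the CEBPG knockouts. In the ATF4 knockouts 1 cone gene fell, Pde6c, and 1 rose, Gngt2, against 14.6% and 16.6% of all genes called lower and higher. The median log2 fold change of the cone genes was -1.03 in ATF3, -0.04 in ATF4, -1.46 in CEBPG and -1.25 in CHOP knockouts, and that of all genes lay between 0 and 0.06. Calls are at an adjusted p below 0.05 in edgeR's quasi-likelihood test, with Benjamini-Hochberg adjustment over all genes tested, and the 4 comparisons share the 4 control libraries.

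**Figure D1:**
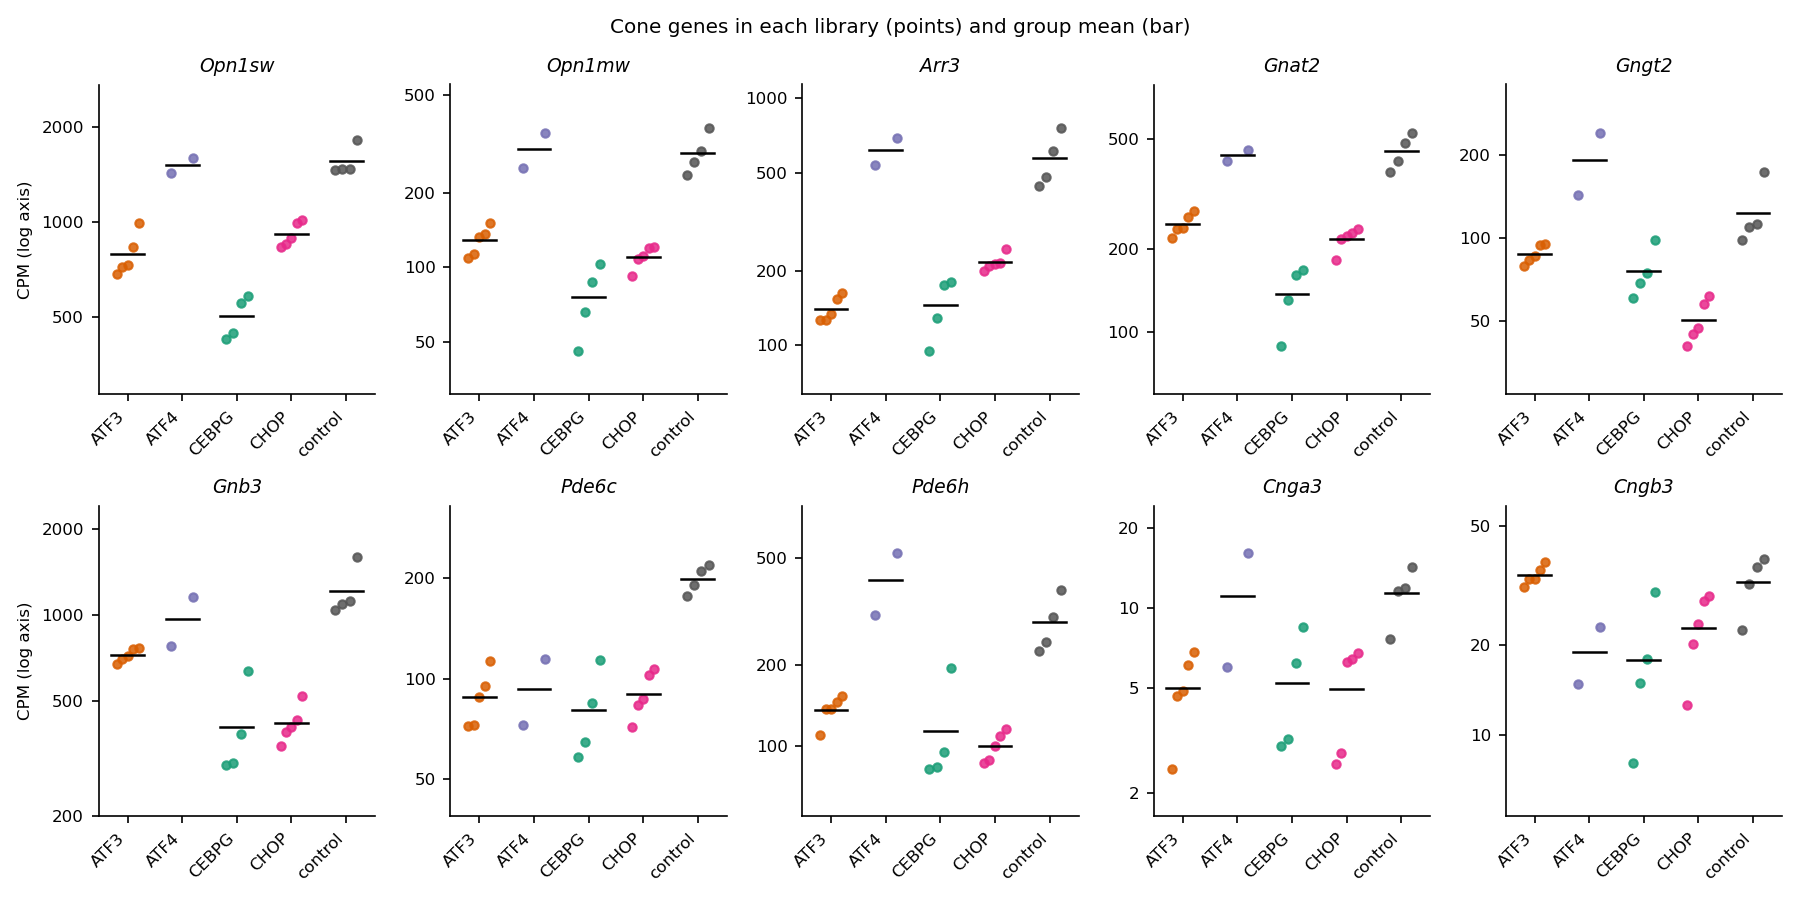
Each point is the level of a cone gene in 1 library, in CPM on a log axis, and the line is the mean of the group, with the knockouts left of the controls. The ATF4 libraries reach the control level for most genes, the ATF3, CEBPG and CHOP libraries lie below it for most genes, Cngb3 apart, and Pde6c is below the controls in all 4 knockouts.

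The short-wavelength opsin Opn1sw (chr6:29376671-29388468, minus strand, mm10) drew more reads than any other cone gene in each group. It stood at 682, 720.4, 729.6, 835 and 989 CPM in the ATF3 knockouts and at 1429 and 1594 CPM in the ATF4 knockouts. It stood at 425, 444, 553 and 581 CPM in the CEBPG knockouts and at 831, 853, 888, 992 and 1014 CPM in CHOP knockouts, against 1464, 1472, 1476 and 1820.4 CPM in the controls. All ATF3, CEBPG and CHOP libraries lay below the lowest control, the CEBPG libraries lay below all others, and the ATF4 libraries overlapped the controls. The log2 fold change was -0.98 ± 0.12 (SE, adjusted p = 7.39e-07) in ATF3, -1.64 ± 0.13 (adjusted p = 5.89e-10) in CEBPG and -0.77 ± 0.12 (adjusted p = 1.81e-05) in the CHOP knockouts. It was -0.04 ± 0.15 in the ATF4 knockouts (adjusted p = 0.871). Opn1sw shares 397 exon bases with Calu on the opposite strand. The sources used here do not say whether the counting used strand or how it treated reads on shared bases. Whether Calu reads entered the Opn1sw counts is therefore not known. Calu averaged 236 CPM in ATF3, 129.9 in ATF4, 179 in CEBPG and 243 in CHOP knockouts, against 220.5 CPM in the controls.

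Opn1mw, the middle-wavelength opsin of the X chromosome (chrX:74127464-74150760, plus strand), ran from 109.6 to 151 CPM in ATF3, from 45.8 to 104 CPM in CEBPG and from 92.6 to 121 CPM in the CHOP knockouts. It had 254 and 351 CPM in the ATF4 knockouts, against 237 to 369 CPM in the controls. Every ATF3, CEBPG and CHOP library lay below the lowest control. Opn1mw fell in ATF3 (log2 fold change -1.18 ± 0.18), CEBPG (-1.95 ± 0.19) and CHOP knockouts (-1.40 ± 0.18), with adjusted p-values of 1.26e-05, 2.80e-08 and 1.17e-06 in that order. In the ATF4 knockouts its log2 fold change was 0.05 ± 0.23.

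The balance of the opsins was compared within each library, which does not depend on depth. Reads of Opn1sw per read of Opn1mw were 6.30 ± 1.70 in ATF3 (SD, n = 5), 5.09 ± 0.77 in ATF4 (n = 2), 6.98 ± 1.60 in CEBPG (n = 4) and 8.32 ± 0.861 in the CHOP knockouts (n = 5), and 5.40 ± 0.605 in the controls (n = 4). The CHOP libraries ran from 7.34 to 9.37 and did not overlap the controls, which ran from 4.94 to 6.21. The difference of 0.62 on the log2 scale between CHOP knockouts and controls had p = 0.00794 in a two-sided exact permutation test, the smallest p that 5 against 4 libraries allow, and an adjusted p of 0.0211 over 77 such tests. The ratio did not pass the test in ATF3 (adjusted p = 0.448), ATF4 (0.675) or CEBPG knockouts (0.0885) against control, by the same exact test. Within batch 3 it passed in no comparison by that test. The log2 difference was 0.43 for CHOP against ATF3 (adjusted p = 0.0885) and -0.27 for CEBPG against CHOP (adjusted p = 0.158). For CEBPG against ATF3 it was 0.16 (adjusted p = 0.502). ATF3 libraries reached 9.03 and CEBPG libraries 9.28, inside the CHOP range. Opn1sw made up 42.6% ± 1.55 of the reads of the 10 cone genes in CHOP knockouts, against 33.0% ± 1.96 in the controls.

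Arr3, the cone arrestin that silences active opsin, is also X-linked (chrX:100605497-100618493, plus strand). Its levels were 126, 127, 134, 154 and 163 CPM in the ATF3 knockouts and 537 and 693 CPM in the ATF4 knockouts. They were 94.9, 129, 175 and 181 CPM in the CEBPG knockouts and 200.4, 209, 212, 215 and 246 CPM in CHOP knockouts, against 443, 481, 612 and 758 CPM in the controls. The ATF4 libraries were inside the control range, and the CHOP libraries were above all ATF3 and CEBPG libraries but below all controls. In the ATF3 knockouts Arr3 fell by 2.03 on the log2 scale (SE 0.17, adjusted p = 1.88e-09), the greatest fall of the 10 genes there. It fell by 1.98 (SE 0.18, adjusted p = 6.39e-09) in CEBPG and by 1.40 (SE 0.16, adjusted p = 4.02e-07) in CHOP knockouts, and its log2 fold change in the ATF4 knockouts was 0.10 ± 0.21 (adjusted p = 0.772). Opn1mw and Arr3, the X-linked pair, are compared between female ATF3, CEBPG and CHOP libraries and male controls, and the part of sex was not tested.

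Gnat2 encodes the alpha subunit of cone transducin, which binds GTP and activates the phosphodiesterase (chr3:108092789-108101432, plus strand). It measured 218, 236, 239, 261 and 275 CPM in the ATF3 knockouts and 418 and 455 CPM in the ATF4 knockouts. The CEBPG knockouts had 89.1, 130.1, 161 and 168 CPM and the CHOP knockouts 182, 217, 223, 228 and 235 CPM, against 380.3, 418, 482 and 526.3 CPM in the controls. CEBPG libraries lay below all libraries of every other group, and ATF4 libraries lay inside the control range. The log2 fold changes against control were -0.88 ± 0.14 (adjusted p = 3.22e-05) in ATF3, -1.72 ± 0.15 (adjusted p = 4.59e-09) in CEBPG and -1.06 ± 0.14 (adjusted p = 2.48e-06) in CHOP knockouts, and -0.05 ± 0.18 in the ATF4 knockouts.

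Gnb3, the beta subunit of cone transducin (chr6:124834240-124840275, minus strand), measured 675, 703, 717, 763 and 769 CPM in the ATF3 knockouts and 779.5 and 1156 CPM in the ATF4 knockouts. It measured 299.5, 306, 384 and 636 CPM in the CEBPG knockouts and 350.1, 393, 406, 432 and 522 CPM in CHOP knockouts, against 1042, 1093, 1123 and 1598 CPM in the controls. CEBPG and CHOP libraries shared a low level, ATF3 libraries lay between them and the controls, and no library of these 3 knockouts overlapped the controls. Gnb3 fell by 0.74 (SE 0.18, adjusted p = 0.00243) in ATF3, by 1.58 (SE 0.20, adjusted p = 8.54e-07) in CEBPG and by 1.53 (SE 0.18, adjusted p = 4.85e-07) in the CHOP knockouts on the log2 scale. In the ATF4 knockouts the log2 fold change was -0.33 ± 0.24 (adjusted p = 0.324).

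Gngt2, the gamma subunit of cone transducin (chr11:95837216-95845734, plus strand), had 79.3, 83.0, 85.8, 94.1 and 95.3 CPM in the ATF3 knockouts and 143 and 242 CPM in the ATF4 knockouts. It had 60.5, 68.9, 74.8 and 98.8 CPM in the CEBPG knockouts and 40.5, 44.8, 47.2, 57.4 and 61.6 CPM in CHOP knockouts, against 98.5, 109.9, 113 and 174 CPM in the controls. The CHOP libraries lay below all ATF3 libraries and all controls and met the CEBPG range at its lower end, and the highest ATF4 library exceeded every control. The log2 fold change was -0.50 ± 0.18 (adjusted p = 0.0330) in ATF3, -0.71 ± 0.19 (adjusted p = 0.00532) in CEBPG and -1.30 ± 0.18 (adjusted p = 4.21e-06) in the CHOP knockouts.

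The rise of Gngt2 in the ATF4 knockouts had a log2 fold change of 0.64 ± 0.23 (adjusted p = 0.0349). Its call ended without ATF4 replicate 1, where the log2 fold change was 0.21 (adjusted p = 0.651), and without control replicate 4, 5 or 8 (adjusted p from 0.0773 to 0.131). The fall of Gngt2 in the ATF3 knockouts ended without control replicate 7 (log2 fold change -0.30, adjusted p = 0.205) and without ATF3 replicate 6, 8 or 9 (adjusted p from 0.0580 to 0.0708). Gngt2 shares 234 exon bases with Abi3, an immune gene on the opposite strand, whose reads on those bases cannot be told apart from it. Abi3 averaged 56.5 CPM in ATF3, 68.2 in ATF4, 68.7 in CEBPG and 42.4 in CHOP knockouts, against 44.0 CPM in the controls, and was itself called higher in the ATF4 knockouts (log2 fold change 0.63, adjusted p = 0.0279).

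Pde6c, the catalytic subunit of cone phosphodiesterase (chr19:38132781-38183958, plus strand), was the gene that fell in all 4 knockouts. Its levels were 72.3, 72.5, 88.1, 95.3 and 113 CPM in the ATF3 knockouts and 72.6 and 114 CPM in the ATF4 knockouts. They were 58.3, 64.5, 84.7 and 114 CPM in the CEBPG knockouts and 71.7, 83.3, 86.9, 102 and 107 CPM in CHOP knockouts, against 177, 190.3, 209.5 and 219 CPM in the controls. No knockout library reached the lowest control, and the 4 knockouts overlapped one another. The log2 fold change was -1.17 ± 0.18 (adjusted p = 2.03e-05) in ATF3, -1.09 ± 0.25 (adjusted p = 0.00152) in ATF4, -1.31 ± 0.19 (adjusted p = 1.15e-05) in CEBPG and -1.14 ± 0.18 (adjusted p = 2.61e-05) in the CHOP knockouts. Without ATF4 replicate 3 the ATF4 value was -0.80 and no longer passed (adjusted p = 0.0624), and without ATF4 replicate 1 it was -1.45 and passed.

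Pde6h, the inhibitory subunit that holds the enzyme off in the dark (chr6:136923832-136968865, plus strand), ran from 109 to 153 CPM in ATF3, from 82.2 to 195 CPM in CEBPG and from 85.9 to 115 CPM in the CHOP knockouts. It had 307 and 521 CPM in the ATF4 knockouts, against 226 to 380.4 CPM in the controls. The ATF3, CEBPG and CHOP libraries all lay below the lowest control, the nearest being CEBPG replicate 8. Pde6h fell by 1.08 (adjusted p = 0.000359) in ATF3, by 1.34 (adjusted p = 7.01e-05) in CEBPG and by 1.53 (adjusted p = 5.22e-06) in the CHOP knockouts on the log2 scale. In the ATF4 knockouts the log2 fold change was 0.52 ± 0.27 (adjusted p = 0.155). Set beside Pde6c at -1.09 there, the 2 subunits of the enzyme had values of opposite sign, and the difference between them was not tested. Pde6h shares 136 exon bases with Arhgdib on the opposite strand, a gene of immune cells that averaged 160.1 CPM in ATF3, 100.5 in ATF4, 495 in CEBPG and 123 in CHOP knockouts, against 88.4 CPM in the controls.

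The channel subunits were scarce. Cnga3 (chr1:37214434-37263384, plus strand) ran from 2.46 to 6.80 CPM in ATF3, from 3.01 to 8.49 CPM in CEBPG and from 2.58 to 6.72 CPM in CHOP knockouts, and stood at 5.99 and 16.1 CPM in the ATF4 knockouts, against 7.65 to 14.2 CPM in the controls. It fell in ATF3 (log2 fold change -1.19 ± 0.43, adjusted p = 0.0348) and CHOP knockouts (-1.19 ± 0.43, adjusted p = 0.0341) and had -1.11 ± 0.46 (adjusted p = 0.0635) in the CEBPG knockouts. Both calls rest on single libraries: that in the ATF3 knockouts ended when ATF3 replicate 5, 6 or 7 was left out, and likewise for control replicates 4, 5 and 8 (adjusted p from 0.0603 to 0.0939), and that in the CHOP knockouts when any of CHOP replicates 4 and 5 and the same controls was left out (adjusted p from 0.0569 to 0.0880). The CEBPG value passed without CEBPG replicate 9 (adjusted p = 0.0260) or control replicate 7 (adjusted p = 0.0480).

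Cngb3, the modulatory channel subunit (chr4:19280850-19510623, plus strand), followed the other genes least. It had 31.3, 33.2, 33.3, 35.5 and 38.0 CPM in the ATF3 knockouts and 14.8 and 23.0 CPM in the ATF4 knockouts. It had 8.09, 15.0, 18.0 and 30.1 CPM in the CEBPG knockouts and 12.6, 20.2, 23.5, 28.1 and 29.2 CPM in CHOP knockouts, against 22.5, 31.9, 36.6 and 38.8 CPM in the controls. All 4 knockouts overlapped the controls. The log2 fold change was 0.08 ± 0.28 (adjusted p = 0.867) in ATF3, -0.78 ± 0.38 (adjusted p = 0.129) in ATF4, -0.86 ± 0.30 (adjusted p = 0.0299) in CEBPG and -0.51 ± 0.28 (adjusted p = 0.171) in the CHOP knockouts. The call in the CEBPG knockouts ended without CEBPG replicate 8 or 9 or control replicate 4 or 7, and with CEBPG replicates 6 and 8 both left out the value was -0.50 (adjusted p = 0.250).

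**Figure D2:**
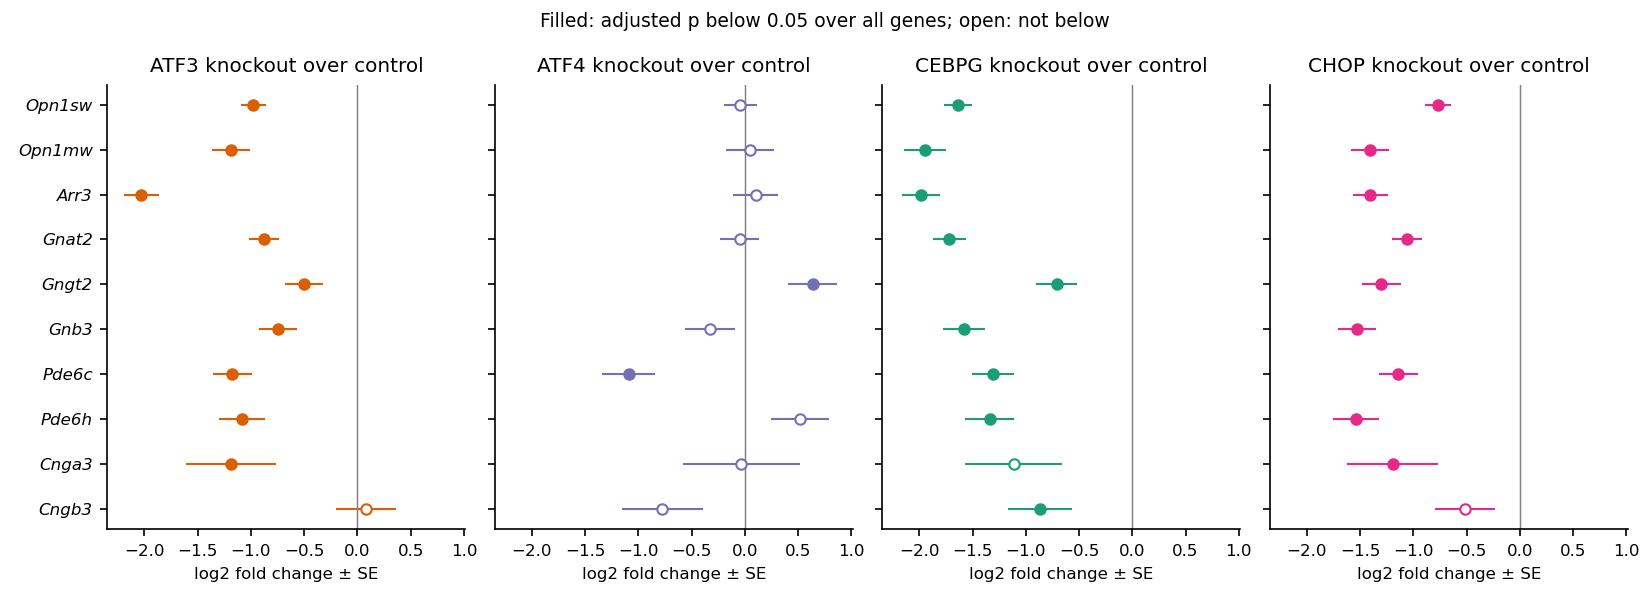
The log2 fold change of each cone gene in each knockout against the controls is plotted with its standard error, filled where the adjusted p is below 0.05. The ATF4 points run from -1.09 for Pde6c to 0.64 for Gngt2, and the other 3 knockouts lie below 0 for every gene apart from Cngb3 in ATF3 at 0.08.

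Rods use a parallel set of 10 proteins, and all 10 rod counterparts, among them Gnat1, Gnb1, Sag, Pde6a, Pde6g and Cngb1, fell in every knockout against control. Their median log2 fold change was -3.35 in ATF3, -3.35 in ATF4, -3.45 in CEBPG and -2.65 in the CHOP knockouts. The share of all genes called lower was 14.8%, 14.6%, 15.0% and 15.4% in that order of knockouts. Gnat1, the rod transducin alpha subunit, measured 900.2 ± 47.1 CPM in ATF3, 692 ± 121 in ATF4, 995 ± 339.6 in CEBPG and 1921 ± 359 in CHOP knockouts, against 11731 ± 2579 CPM in the controls. Gnb1 is also used by many other cell types.

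Within a library, the reads of the 10 cone genes per read of the 10 rod counterparts were 0.638 ± 0.0395 in ATF3 (SD, n = 5), 1.18 ± 0.0113 in ATF4 (n = 2), 0.415 ± 0.0295 in CEBPG (n = 4) and 0.332 ± 0.0701 in the CHOP knockouts (n = 5), against 0.127 ± 0.0445 in the controls (n = 4). Every knockout library had a higher ratio than every control. Gene by gene, the ratio of each cone gene to its own rod counterpart was tested on the log2 scale with two-sided exact permutation tests, adjusted over 77 tests. In the ATF3 knockouts all 10 ratios were higher than in the controls, by 0.91 for Arr3 to Sag up to 3.31 for Cngb3 to Cngb1 (each exact p = 0.00794, the smallest possible, adjusted p = 0.0211). In the CHOP knockouts 8 of 10 passed, while Gnb3 to Gnb1 (difference 0.57, adjusted p = 0.104) and Pde6h to Pde6g (1.06, adjusted p = 0.0524) did not.

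In the ATF4 knockouts the means of all 10 ratios lay above those of the controls, by 2.21 to 4.03, but 2 against 4 libraries cannot go below p = 0.0667 in the exact test. In the CEBPG knockouts the 10 means lay above those of the controls by 0.77 to 2.62, and no ratio passed the exact test. For 9 of them the libraries did not overlap the controls. Their p was the smallest that 4 against 4 libraries allow, 0.0286, which became 0.0524 after adjustment. Gnb3 to Gnb1 overlapped the controls (exact p = 0.0857, adjusted p = 0.11). For the transducin alpha pair, the mean log2 ratio of Gnat2 to Gnat1 was -1.88 in ATF3, -0.65 in ATF4, -2.84 in CEBPG and -3.13 in CHOP knockouts, against -4.68 in the controls.

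**Figure D3:**
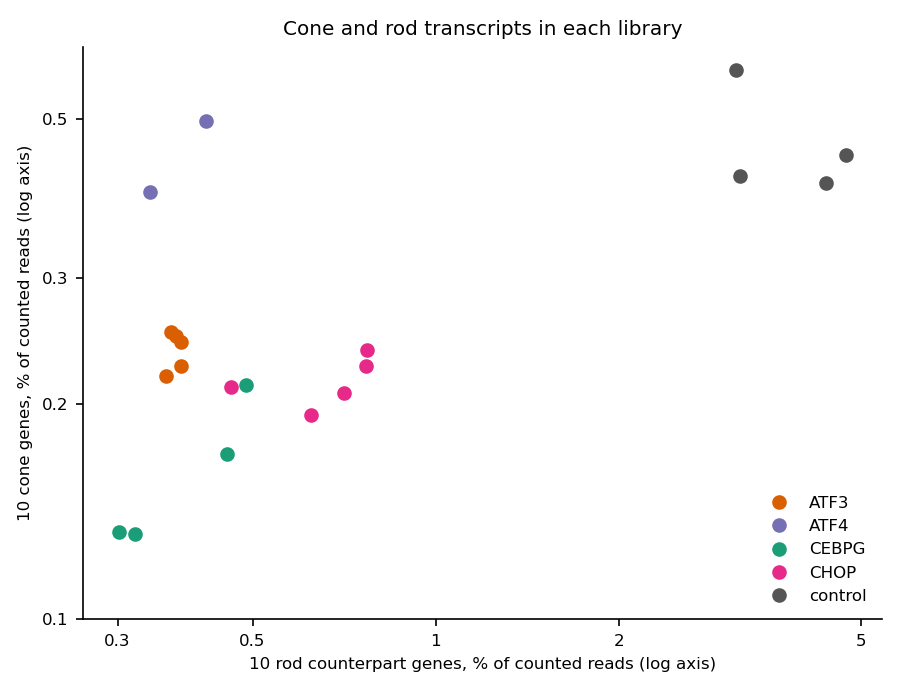
Each point is 1 library, with the summed share of the counted reads of the 10 rod counterparts on the horizontal axis and of the 10 cone genes on the vertical axis, both in percent on log axes and coloured by group. The knockout libraries lie between 0.301% and 0.770% for the rod counterparts, against 3.12% to 4.72% in the controls, and the 2 ATF4 libraries stand above all other knockout libraries for the cone genes.

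A further list held genes that both photoreceptor types use, such as those of the outer segment disc. All 29 tested genes of that list fell in each of the 4 knockouts. Their median log2 fold changes were -2.99 in ATF3, -3.005 in ATF4, -3.17 in CEBPG and -2.57 in the CHOP knockouts. Of all genes, 14.8%, 14.6%, 15.0% and 15.4% fell in that order of knockouts. Prph2, a disc rim protein of rods and cones, averaged 515 CPM in ATF3, 485 in ATF4, 426 in CEBPG and 784 in CHOP knockouts, against 5483 CPM in the controls. Fscn2, an actin bundling protein of photoreceptors, had log2 fold changes of -4.15, -3.99, -3.88 and -3.24 in that order of knockouts.

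Of 15 photoreceptor transcription factors, 13 fell in ATF3, 13 in ATF4, 13 in CEBPG and 12 in the CHOP knockouts against control, and none rose, with medians of -2.15, -2.38, -2.31 and -1.92 on the log2 scale. Nr2e3 and Nrl set rod identity. Nr2e3 had the smallest adjusted p of the list in each knockout, with log2 fold changes of -4.18, -4.45, -3.67 and -3.16, and Nrl had -3.92, -3.41, -3.68 and -2.70, in the same order. Crx, which drives genes of both rods and cones, fell by 2.73 in ATF3, by 2.64 in ATF4, by 3.56 in CEBPG and by 2.68 in the CHOP knockouts on the log2 scale. Samd7 and Samd11, repressors that act in rods, had log2 fold changes of -3.92 and -3.85 in ATF3 knockouts and of -4.43 and -3.79 in ATF4 knockouts. Among genes enriched in cones beyond the cascade, 16 of 18 listed names were tested. Of these, 9 fell in ATF3, 8 in ATF4, 13 in CEBPG and 9 in the CHOP knockouts, while 1, 2, 0 and 2 rose. The medians were -0.85, -0.52, -1.31 and -0.83. This list shares members with the transcription factors and with the genes that both photoreceptor types use, so the counts are not separate. The cone-enriched genes with the smallest adjusted p, among them Guca1a, Kcnv2 and Gnb5, are also expressed by rods. Of all genes, 14.8% fell and 18.6% rose in ATF3, and 14.6% and 16.6% in ATF4 knockouts. These shares were 15.0% and 18.3% in CEBPG and 15.4% and 18.1% in CHOP knockouts. The counts of cone-enriched genes that rose lie below the shares of all genes that rose.

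The ATF3, CEBPG and CHOP knockouts, alike in batch and sex, differed from one another in single cone genes. Between the CEBPG and ATF3 knockouts 5 of 10 cone genes were lower in CEBPG, where 10.1% of all genes were called lower and 10.2% higher: Opn1sw (log2 fold change -0.66 ± 0.12, adjusted p = 0.000338), Opn1mw (-0.76 ± 0.18, adjusted p = 0.00369), Gnat2 (-0.84 ± 0.14, adjusted p = 0.000173), Gnb3 (-0.84 ± 0.18, adjusted p = 0.00204) and Cngb3 (-0.94 ± 0.29, adjusted p = 0.0219). The median of the 10 was -0.46, against 0.0042 for all genes, and none of the rod counterparts passed. Cngb3 no longer passed without CEBPG replicate 8 (adjusted p = 0.0657) or 9 (adjusted p = 0.0578), and Pde6h passed without CEBPG replicate 8 (log2 fold change -0.66, adjusted p = 0.00984).

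Between the CHOP and ATF3 knockouts, Gnb3 (log2 fold change -0.79 ± 0.17, adjusted p = 0.0120) and Gngt2 (-0.80 ± 0.17, adjusted p = 0.00977) were lower in CHOP, and Arr3 (0.62 ± 0.16, adjusted p = 0.0323) was higher, where 1.51% of all genes were called lower and 0.756% higher. The median of the 10 was -0.20, against 0.0097 for all genes. The Arr3 call ended without any 1 of 9 of the 10 libraries (adjusted p from 0.0548 to 0.109). Of the rod counterparts, 6 were higher in CHOP, among them Gnat1 by 1.09 on the log2 scale.

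Between the CEBPG and CHOP knockouts 4 cone genes were lower in CEBPG, Opn1sw (log2 fold change -0.87 ± 0.12, adjusted p = 1.07e-05), Gnat2 (-0.66 ± 0.14, adjusted p = 0.00132), Arr3 (-0.58 ± 0.17, adjusted p = 0.0123) and Opn1mw (-0.54 ± 0.18, adjusted p = 0.0275), and Gngt2 was higher (0.59 ± 0.18, adjusted p = 0.0170). Of all genes, 13.2% were called lower and 13.5% higher, and the median of the 10 was -0.26, against -0.0269 for all genes. Opn1mw no longer passed without CEBPG replicate 6 or 10 or CHOP replicate 1, 3 or 5 (adjusted p from 0.0521 to 0.0986), and Gngt2 no longer passed without CEBPG replicate 8 (log2 fold change 0.44, adjusted p = 0.0841). With CEBPG replicates 6 and 8 both left out, Opn1sw and Gnat2 were the called cone genes. Of the rod counterparts 8 were lower in CEBPG than in CHOP.

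**Figure D4:**
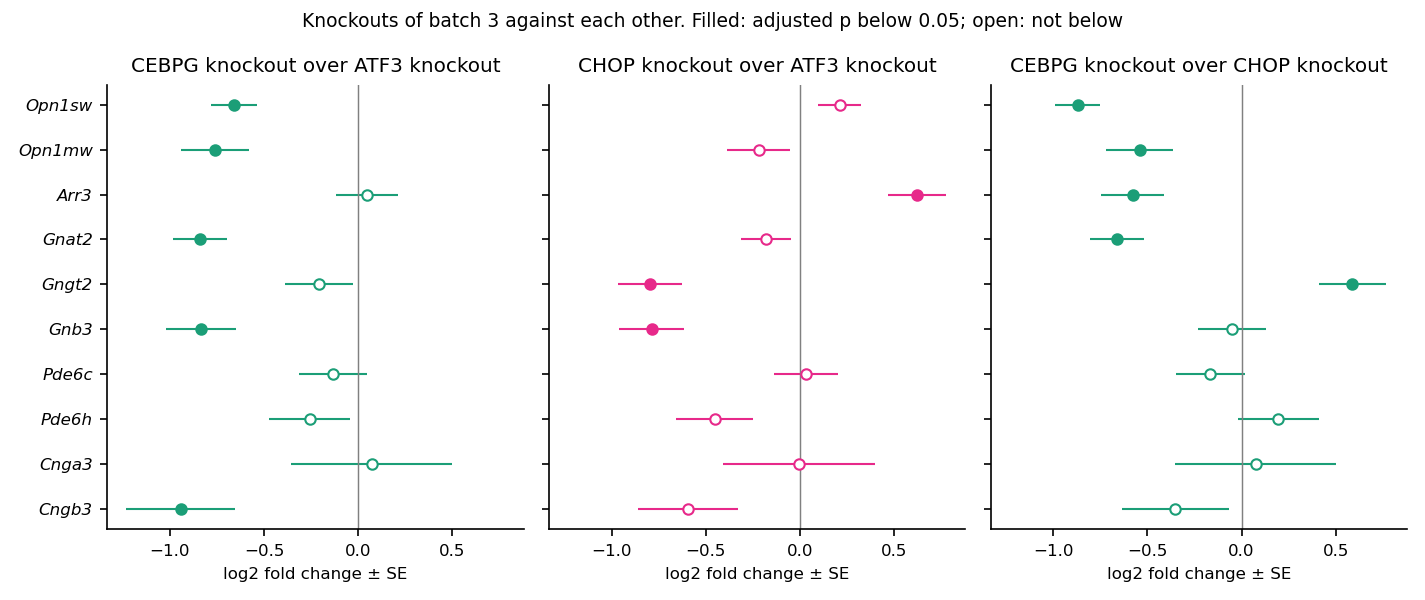
The log2 fold change of each cone gene between pairs of the ATF3, CEBPG and CHOP knockouts, first named over second, is plotted with its standard error and filled where the adjusted p is below 0.05. Gngt2 is at -0.80 in CHOP against ATF3 and at 0.59 in CEBPG against CHOP, while Opn1sw is at -0.87 in CEBPG against CHOP.

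Gnb3 is set beside genes of bipolar cells. Of 15 bipolar cell genes, 4 fell and 3 rose in ATF3, 4 fell and 2 rose in ATF4, 14 fell in CEBPG and 12 fell in the CHOP knockouts against control, with none rising in the last 2, and the list's medians were -0.0365, -0.30, -1.45 and -1.33. Of all genes, 14.8%, 14.6%, 15.0% and 15.4% fell in that order of knockouts, and 18.6%, 16.6%, 18.3% and 18.1% rose. Gnb3 was called lower in the ATF3, CEBPG and CHOP knockouts and was not called in ATF4. Scgn was among the 3 list genes that rose in ATF3, by 1.05 on the log2 scale, while 4 fell there. The median of all genes in ATF3 was 0.0638. The 15 genes together had a share of the counted reads of 0.170% to 0.193% in ATF3, 0.151% to 0.170% in ATF4, 0.0541% to 0.0893% in CEBPG and 0.0689% to 0.0951% in CHOP knockouts, against 0.122% to 0.196% in the controls. Scgn, a calcium-binding protein of bipolar cells, averaged 265 ± 19.3 CPM in ATF3, 314 ± 36.4 in ATF4, 47.5 ± 15.6 in CEBPG and 98.1 ± 10.1 in CHOP knockouts, against 128 ± 39.3 CPM in the controls. Gng13, the gamma subunit that pairs with Gnb3 in ON bipolar cells, averaged 68.3 ± 4.85, 96.4 ± 22.2, 27.3 ± 12.3 and 20.9 ± 3.61 CPM in that order of knockouts, against 74.7 ± 18.3 CPM in the controls. Between the CHOP and ATF3 knockouts 11 bipolar cell genes were lower in CHOP and 1, Prkca, named after its values were seen, was higher by 0.58, with Scgn at -1.43 and Gng13 at -1.70 on the log2 scale, and between the CEBPG and ATF3 knockouts 11 were lower in CEBPG. Of all genes, 1.51% were lower and 0.756% higher in CHOP than in ATF3 knockouts, and 10.1% were lower in CEBPG than in ATF3 knockouts. Nyx was the 1 bipolar cell gene with 0 reads in any library. The part of bipolar cell RNA in the Gnb3 values was not tested.

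Gngt2 is set beside genes of immune cells. Of 15 microglial genes, 11 were higher in CEBPG than in CHOP knockouts and none lower, led by Fcrls (log2 fold change 1.22), Aif1 (1.19), C1qb (0.90) and C1qa (0.73). Between the CHOP and ATF3 knockouts 3 were lower in CHOP and none higher, with Fcrls at -2.53. Against control, 4 microglial genes rose and none fell in ATF3, 5 rose and 1 fell in ATF4, 9 rose and none fell in CEBPG, and 1 rose and 3 fell in the CHOP knockouts. Of all genes, 18.6%, 16.6%, 18.3% and 18.1% rose in that order of knockouts, and 14.8%, 14.6%, 15.0% and 15.4% fell. Between knockouts, 13.2% were lower and 13.5% higher for CEBPG against CHOP. These shares were 1.51% and 0.756% for CHOP against ATF3, and 10.1% and 10.2% for CEBPG against ATF3. The 15 took 0.521% to 0.590% of the counted reads in ATF3, 0.545% to 0.688% in ATF4, 0.620% to 0.722% in CEBPG and 0.350% to 0.507% in CHOP knockouts, against 0.402% to 0.635% in the controls. Of 11 monocyte and macrophage genes, 6 rose and none fell in ATF3, 2 rose and 1 fell in ATF4, 8 rose and none fell in CEBPG, and 5 rose and 2 fell in the CHOP knockouts against control. In CEBPG 7 were higher and 1 was lower than in ATF3 knockouts, and 9 were higher and 1 was lower than in CHOP knockouts, while 4 were lower and none higher in CHOP than in ATF3 knockouts. They took 0.135% to 0.150% of the counted reads in ATF3, 0.0757% to 0.114% in ATF4, 0.260% to 0.308% in CEBPG and 0.0765% to 0.0979% in CHOP knockouts, against 0.0900% to 0.133% in the controls. Gngt2 itself was called lower in the ATF3, CEBPG and CHOP knockouts against control and higher in the ATF4 knockouts, where its mean was highest. Fcrls averaged 172 ± 13.1 CPM in ATF3, 13.6 ± 3.80 in ATF4, 69.2 ± 12.01 in CEBPG and 29.7 ± 3.09 in CHOP knockouts, against 11.6 ± 2.17 CPM in the controls. Fcrls is 1 of the 15 microglial genes, and the list as a whole had another order of groups. The mean share of the list was 0.555% in ATF3, 0.616% in ATF4, 0.684% in CEBPG, 0.435% in CHOP knockouts and 0.494% in the controls. None of the 15 microglial genes was at 0 reads in any library, and of the monocyte and macrophage genes Spn and Treml4 were at 0 in at least 1. The part of immune cell RNA in the Gngt2 values was not tested.

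**Figure D5:**
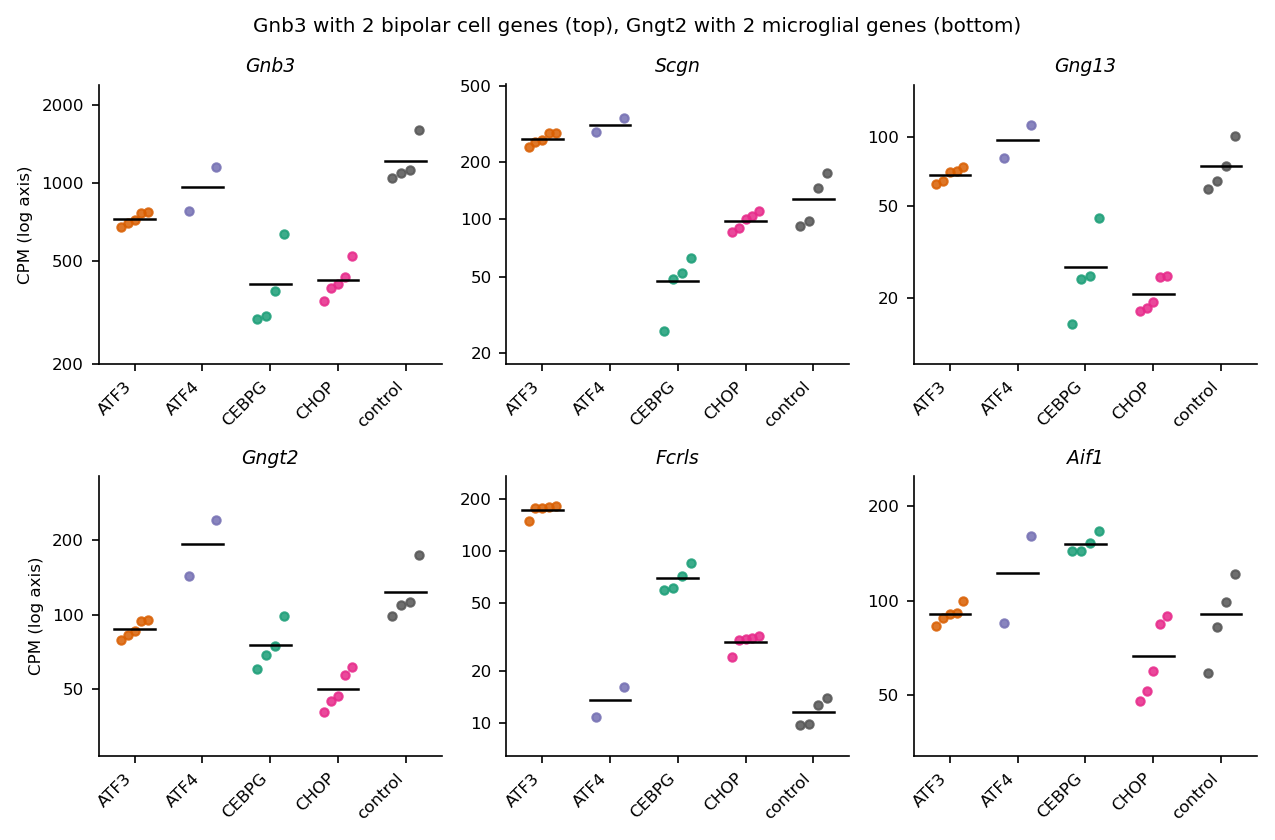
Levels in CPM on a log axis, 1 point per library and a line at each mean, show Gnb3 with the bipolar cell genes Scgn and Gng13 (top) and Gngt2 with the microglial genes Fcrls and Aif1 (bottom). Gnb3, Scgn and Gng13 each have lower means in the CEBPG and CHOP libraries than in the other 3 groups. Fcrls has its lowest means in the ATF4 and control libraries, unlike the summed share of the microglial list, which is lowest in CHOP.

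Genes of other retinal cells were also compared with the controls. Of all genes, 14.8% fell and 18.6% rose in ATF3, 14.6% and 16.6% in ATF4, 15.0% and 18.3% in CEBPG, and 15.4% and 18.1% in CHOP knockouts. Some counts of Müller glia and ganglion cell genes below lie near these shares. Of 12 amacrine cell genes, 11 rose in ATF3, 10 in ATF4, 9 in CEBPG and 11 in the CHOP knockouts against control and none fell, and their share of the counted reads was 0.657%, 0.539%, 0.425% and 0.812% in that order, against 0.229% in the controls. Of 13 Müller glia genes, 4 fell and 3 rose in ATF3, 0 fell and 7 rose in ATF4, 8 fell and 3 rose in CEBPG and 7 fell and 1 rose in the CHOP knockouts. Of the 15 ganglion cell markers, 6 fell and 5 rose in ATF3, 0 fell and 7 rose in ATF4, 4 fell and 2 rose in CEBPG and 4 fell and 4 rose in the CHOP knockouts. The part of these cell types in the cone gene values was not tested.

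Over the 20 libraries, most cone genes followed the mean of the others, as a description of libraries that share group, batch and sex. The correlation of log2 CPM with the mean of the other 9 genes was 0.962 for Opn1mw, 0.953 for Gnat2, 0.894 for Opn1sw, 0.889 for Pde6h, 0.889 for Gnb3 and 0.864 for Arr3. It was 0.722 for Gngt2, 0.713 for Pde6c, 0.585 for Cnga3 and 0.149 for Cngb3. After the group means were taken out, it was highest for Gnat2 (0.849) and below 0 for Cnga3 (-0.274) and Cngb3 (-0.678). The genes outside the cascade most correlated with the mean of all 10 were Tmem106c (0.951), Pmm1 (0.948), Usp2 (0.942), Mfge8 (0.940) and Fam120aos (0.936), and with group means taken out Tekt1 (0.805), Ldb3 (0.787), Eny2 (0.786), Snf8 (0.781) and Msra (0.776).

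The authors' deposited table of comparisons gives a log fold change and a false discovery rate (FDR) for each knockout, with the reference group, the model and the base of the logarithm not given in the sources used here. In the authors' deposited table all 10 cone genes have an FDR below 0.05 for CEBPG and 9 for CHOP, Cngb3 being the exception there. The authors' deposited table lists Opn1sw at -2.56 and Arr3 at -2.54 for ATF3, with Cngb3 at -0.89 (FDR 0.422). The log2 fold changes found here were -0.98, -2.03 and 0.08 in that order of genes. For ATF4 the authors' deposited table has no cone gene with an FDR below 0.05, and lists Pde6c at -1.16 (FDR 0.394) and Gngt2 at -0.12 (FDR 0.934). Both were called here, Pde6c at -1.09 and Gngt2 with the opposite sign, at 0.64. The cause of these differences was not tested.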

How the data were processed

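Cells sorted as retinal ganglion cells (5000 to 10000 per library) were used for low-input RNA libraries, per the labels' protocols. STAR, Picard, HTSeq and edgeR are named without versions, with the build mm10, per the submitters' processing notes. The authors deposited raw read counts per gene for 21 libraries, a table of log2 or other log fold changes with p-values for 17100 genes, and a sample sheet. Duplicate reads, a fraction in the deposited sheet, were 48.0% to 57.6%. Not used were 37 other sheet columns of per-sample values. The library whose title says control and whose genotype says CHOP entered no group.

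The analysis used R 4.3.3 and edgeR 4.0.16: filterByExpr (minimum count 10) kept 16797 genes and removed 367, libraries were scaled by TMM, and all 20 libraries entered a robust quasi-likelihood fit (residual degrees of freedom 15, common biological coefficient of variation 0.407). Comparisons were contrasts, with Benjamini-Hochberg adjustment over all genes. CPM use TMM-scaled library sizes. Log2 ratios of gene pairs add a prior count of 2 and were compared by exact permutation of libraries. Coordinates and lengths come from GENCODE on mm10. The step was tested on simulated counts. Alternatives used limma 3.58.1 and DESeq2 1.42.0, other scalings, no filter, 2 groups alone, a replicate block and each library left out. Since no label ties libraries to animals, p-values reflect the spread between libraries only, and that may be technical.

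The members and the 14 gene lists were chosen with earlier results of these data known. Named genes are all cone genes, their rod counterparts, up to 4 members per other list and comparison by adjusted p, and the 5 genes most correlated with the cone genes. Genes on the opposite strand, Pou4f2 and the targeted genes were added outside this rule, the first after the overlaps were found. Some members of the lists are not reported by name here.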

Additional observations from a re-analysis of the deposited data

Results flagged for a closer look

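The library titled as control but labelled CHOP in its genotype, with 33665965 counted reads, entered no comparison. All 10 cone genes were above every control library in it, by 1.69 to 5.05 times the control mean. In CPM without TMM scaling it held 5761 of Opn1sw, 1021 of Opn1mw, 946.5 of Arr3, 1287 of Gnat2, 376.8 of Gngt2 and 2351 of Gnb3. Pde6c stood at 825.9, Pde6h at 828.0, Cnga3 at 55.58 and Cngb3 at 94.61 CPM. Opn1sw in the controls ran from 1406 to 1822 CPM on that scale. All 10 rod counterparts were below every control in the same library, at 0.0569 to 0.519 of the control mean, and it held 2.11 cone reads per rod read.

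Within groups of 4 or 5 libraries, 3 of 40 gene and group pairs had a library far from the others, where chance gives about 1 in 20. Control replicate 7 was high for Opn1sw, at 1820 CPM, and for Gnb3, at 1598 CPM. CEBPG replicate 8 was high for Pde6h, at 195.3 CPM.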

How the results depend on the processing

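The counts of cone genes lower than control ran from 7 to 9 for ATF3, 7 to 10 for CEBPG and 8 to 9 for CHOP over all alternatives, and that of CEBPG below ATF3 from 4 to 5. With the replicate number as a block, the counts of cone genes called were 0 lower and 0 higher for ATF4, 0 lower and 0 higher for CHOP against ATF3, and 0 lower and 0 higher for CEBPG against CHOP. The numbers do not pair the libraries: over 12 same-numbered pairs the correlation of deviations ran from -0.058 to 0.048. The 1 gene higher for ATF4 became 0 with limma-voom and with only the 2 groups compared. With CEBPG replicates 6 and 8 both left out, chosen after seeing the data, CEBPG against CHOP had 2 lower and 0 higher. Leaving out single libraries gave 0 to 1 for ATF4 lower, ATF4 higher, CHOP above ATF3 and CEBPG above CHOP.

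Sign changes were confined to values that did not pass the test, with the range over single libraries left out given first as log2 fold change. For ATF3 against control, Cngb3 ran from -0.0875 to 0.18. For ATF4 against control, Opn1sw ran from -0.12 to 0.0327 (0.0193 with the replicate block), Opn1mw from -0.21 to 0.26, Arr3 from -0.0949 to 0.27, Gnat2 from -0.17 to 0.0205 and Cnga3 from -0.92 to 0.51. For CEBPG against ATF3, Arr3 ran from -0.0796 to 0.20 and Cnga3 from -0.28 to 0.26. For CHOP against ATF3, Pde6c ran from -0.0481 to 0.12 and Cnga3 from -0.19 to 0.15, with 0.0023 for RLE size factors, 0.0047 for library totals without TMM and 0.0023 for DESeq2. For CEBPG against CHOP, Gnb3 ran from -0.35 to 0.0831 (0.0050 without TMM, 0.0521 with the replicate block), Pde6h from -0.19 to 0.33 and Cnga3 from -0.26 to 0.28, and without CEBPG replicates 6 and 8 Pde6h was -0.13 and Cngb3 0.0204. Among log2 ratios, Gnb3 to Gnb1 ran from -0.0036 to 0.32 and Cngb3 to Cngb1 from -0.11 to 0.75 for CEBPG against CHOP, and Opn1sw to Opn1mw from -0.24 to 0.0677 for ATF4 against control. The cause of these changes was not tested.

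Leaving a library out of 5 against 4 brings the smallest exact p to 0.0286, so calls of ratios then end by construction. Cnga3 had the fewest reads of the 10 genes, with 57 to 255 per library.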
